A study of Mus musculus with 16 samples.

Results

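Lysosomal enzymes and membrane proteins were followed at the mRNA level in mouse embryonic fibroblasts as the cultures passed from proliferation to quiescence, with and without a mutation of Zac1 (Plagl1). The group holds 37 genes, found by their symbols among 23100 genes in the counts table, and every one of them was measured well enough to be tested. It covers 5 proteins of the lysosomal membrane (Lamp1, Lamp2, Scarb2, Npc1 and Mcoln1), 8 proteases (Ctsa, Ctsb, Ctsd, Ctsf, Ctsk, Ctsl, Ctsz and Tpp1), 11 glycosidases (Gaa, Gla, Glb1, Gusb, Hexa, Idua, Man2b1, Manba, Naglu, Neu1 and Fuca1), 5 sulfatases (Ids, Sgsh, Arsa, Arsb and Galns), 6 lipid hydrolases and lipid-handling proteins (Lipa, Npc2, Ppt1, Psap, Smpd1 and Asah1), progranulin (Grn) and the transcription factor Tfeb.

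The cells were C57BL/6 fibroblasts taken from E13.5 embryos, either wildtype (Zac+/+) or Zac1-mutant (Zac+/-). Each genotype was represented by 2 lines, called replicate 1 and replicate 2 here, and each line was harvested once at day 2 in vitro, in the proliferative state, and at days 8, 10 and 12, in the quiescent state, which gives 16 libraries. No group received a further treatment, and the labels do not say whether a line came from a single embryo or from pooled embryos. Wildtype and mutant lines of the same replicate number also carry the same letter in the labels, I for replicate 1 and L for replicate 2, and what it marks is not stated. Zac1 codes for a zinc finger protein and is imprinted, with the paternal copy active. The titles of the mutant samples carry KOpat, read here as a knockout of that paternal copy. Levels are given as CPM, counts scaled to the size of the library, and the quiescent value of a line is the sum of its harvests at days 8, 10 and 12, which are repeat harvests and not independent replicates.

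Lysosomes are acidic organelles in which hydrolases break down the proteins, glycans, glycolipids and lipids that arrive by endocytosis, phagocytosis and autophagy, and fibroblasts use them to turn over the collagen and proteoglycans that they take up from the matrix. Most of the soluble enzymes receive a mannose 6-phosphate tag in the Golgi apparatus that carries them to the lysosome, whereas the membrane proteins reach it by signals in their cytoplasmic tails. Many of these genes share a promoter element that is bound by TFEB and its relatives TFE3 and MITF, and the activity of these factors is set largely by phosphorylation under the control of the mTORC1 kinase on the lysosomal surface, a step that mRNA counts do not measure.

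The total per library was 28079241 to 61039793 counts. Plagl1 itself was lower in the mutant lines in every state. It stood at 44.7 and 37.4 CPM in the wildtype lines and 9.05 and 7.56 CPM in the mutant lines at day 2, and at 201 and 163 CPM and 47.4 and 51.5 CPM at quiescence, a log2 difference of -2.31 ± 0.16 (SE, adjusted p = 0.00085, edgeR's quasi-likelihood test with Benjamini-Hochberg adjustment) and -1.88 ± 0.15 (adjusted p = 0.00297). Fibroblast markers, of the labelled cell type, were abundant, with a summed level of 14143 to 15576 CPM for 11 genes (among them Col1a1, Col1a2 and Vim) at day 2 and of 31102 to 43386 CPM later. They did not move together: of the 11 tested 8 rose and 2 fell in each genotype. Vim lay lower at every later day than at day 2 in every line. Epithelial markers (7 genes) summed to 55.4 to 70.5 CPM at day 2 and 5.05 to 14.7 CPM later, and of the 5 tested 4 fell and 1 rose in each genotype. Endothelial markers (7 genes) summed to 18.3 to 23.3 CPM and 4.94 to 9.06 CPM, and of the 5 tested 2 fell and 1 rose in wildtype. Tie1 and Esrp1 were at 0 in every library, and the part of these cell types in the results was not tested. Macrophage markers, 16 genes that include Lyz2, Csf1r and Adgre1 (listed as Emr1), differed between lines: at quiescence they summed to 66.0 CPM in wildtype replicate 1, 227.9 CPM in wildtype replicate 2, 376.5 CPM in mutant replicate 1 and 45.4 CPM in mutant replicate 2.

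The promoters of many lysosomal genes carry the letters GTCACGTG, the core of the element that TFEB and its relatives bind, and the members that hold them are shown here because they let the change in level be read beside the element. RefSeq start sites (GRCm38.p6) were found for 33 of the 37 members; Npc1, Ctsb, Galns and Asah1 had no entry. Within the 250 bases before the start, read on both strands, GTCACGTG was present in 9 of the 33 genes (27.3%), against 571 of 27025 genes in the whole table (2.11%). The shorter CACGTG, which reads the same on both strands and lies inside GTCACGTG, was present in 12 of the 33 (36.4%), against 6.86% of all genes. The sequences below run 5′ to 3′ on the strand of the gene and end before the start site, and capitals mark each copy of GTCACGTG (or CACGTGAC, its reverse complement) and any other CACGTG in the window. The 6 that rose at quiescence in wildtype are given first.
Arsa, chr15:89477425-89477468, minus strand: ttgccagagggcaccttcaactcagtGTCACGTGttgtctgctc
Naglu, chr11:101069993-101070052, plus strand: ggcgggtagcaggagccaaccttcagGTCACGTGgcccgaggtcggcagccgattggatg
Ctsd, chr7:142387892-142387951, minus strand: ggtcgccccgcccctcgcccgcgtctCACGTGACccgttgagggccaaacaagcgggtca
Ctsa, chr2:164833733-164833772, plus strand: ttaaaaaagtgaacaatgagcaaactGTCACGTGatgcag
Sgsh, chr11:119355511-119355565, minus strand: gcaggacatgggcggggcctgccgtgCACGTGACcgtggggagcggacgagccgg
Glb1, chr9:114401002-114401061, plus strand: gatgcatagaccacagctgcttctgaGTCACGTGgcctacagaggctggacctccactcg

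The other 3 holders did not pass the test for a change at quiescence, and Ctsf, the member with the largest change, holds only the shorter CACGTG. These 4 were chosen for display after their values were seen.
Lamp1, chr8:13159107-13159160, plus strand: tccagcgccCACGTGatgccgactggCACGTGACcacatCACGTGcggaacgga
Mcoln1, chr8:3500448-3500507, plus strand: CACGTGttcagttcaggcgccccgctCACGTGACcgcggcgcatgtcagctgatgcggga
Gla, chrX:134601168-134601227, minus strand: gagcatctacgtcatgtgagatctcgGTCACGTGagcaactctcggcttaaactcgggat
Ctsf, chr19:4855060-4855117, plus strand: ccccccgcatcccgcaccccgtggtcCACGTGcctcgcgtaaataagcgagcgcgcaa

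The copy nearest the start began 14 bases before it in Ctsa, 18 in Arsa, 28 in Lamp1, 29 in Sgsh, 45 in Mcoln1, 50 in Glb1, 75 in Naglu, 98 in Ctsd and 196 in Gla. Mcoln1 and Ctsd each held 2 copies within the 250 bases. A match of letters is a description and does not show that a factor binds there.

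Most of the 37 lysosomal genes made up a larger share of the counts in quiescent cultures, and none passed the test in the other direction. In wildtype lines 30 of the 37 rose from day 2 to the quiescent state, where 23.9% of all 15740 tested genes rose and 23.7% fell. In mutant lines 29 of the 37 rose, against 21.1% of all tested genes that rose and 21.0% that fell. The 29 called in mutant lines were all called in wildtype lines. Glb1 passed the test in wildtype and not in mutant, without a difference between the genotypes that passed (-0.11, adjusted p = 1.00), and Lamp1, Mcoln1, Ctsl, Gla, Gusb, Galns and Asah1 passed in neither. The median log2 change over the 37 genes was 0.76 in wildtype and 0.71 in mutant, where it was 0.05 over all tested genes in each genotype. Each of these changes is a share of all counts in a bulk culture, so more cells of a kind and more mRNA per cell cannot be told apart. The total mRNA per cell was not measured, so a larger share need not mean a larger amount.

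The summed level of the 37 genes was 7275 and 6799 CPM in wildtype replicates 1 and 2 at day 2 and 11171 and 11919 CPM at quiescence. In the mutant lines it was 7962 and 7079.7 CPM at day 2 and 11918 and 12001 CPM at quiescence. Every quiescent sum lay above every day 2 library. Gene by gene, all 4 quiescent sums lay above all 4 day 2 libraries for 32 of the 37 members, against 30.8% of all tested genes, and the 5 exceptions were Ctsl, Gla, Gusb, Galns and Asah1. The changes were mostly moderate: 11 members were at least 2-fold higher in wildtype and 10 in mutant, where 18.8% and 17.1% of all tested genes were.

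Line by line, the 37 genes had a median fold of 1.74 in wildtype replicate 1, 1.73 in wildtype replicate 2, 1.65 in mutant replicate 1 and 1.68 in mutant replicate 2. In the same order of lines the macrophage markers summed to 20.4, 96.6, 119.6 and 15.5 CPM at day 2, and to the values given above at quiescence. The marker sum of the pooled quiescent days was above that of day 2 in every line, and its part in the change of the 37 genes was not tested. None of the 16 markers passed the test in either genotype, although 15 of them had a fitted change above 0 in each, with medians of 1.47 and 1.94.

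**Figure D1:**
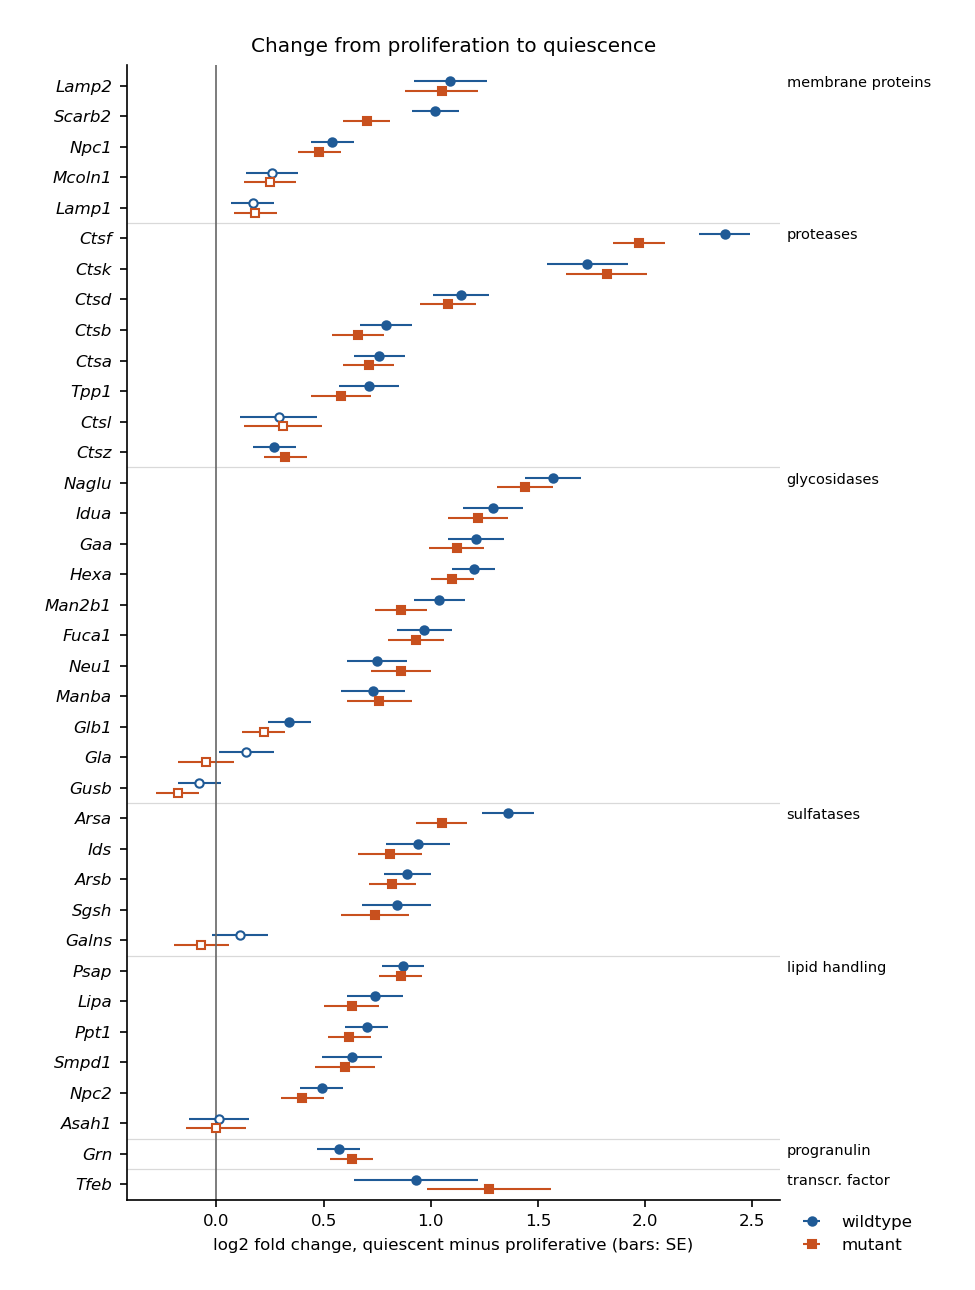
Log2 fold change from day 2 to the quiescent state for each of the 37 genes (x axis), grouped by role, with wildtype lines as blue circles and mutant lines as orange squares; bars are SE and filled symbols passed edgeR's test at an adjusted p under 0.05. Nearly all symbols lie to the right of 0, with Ctsf (2.37 in wildtype) and Ctsk (1.73) farthest out and Gusb (-0.08) to the left.

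Of the membrane proteins, 3 of 5 rose in each genotype, and Lamp1, the most abundant of them per kilobase of exon, did not. Beside this count and those of the other roles below, 23.9% of all tested genes rose in wildtype and 21.1% in mutant. Lamp2 is one of the main glycoproteins that line the inner face of the membrane, and one of its forms takes part in chaperone-mediated autophagy. It measured 428 and 315 CPM in the wildtype lines and 424 and 325 CPM in the mutant lines at day 2 (replicate 1, then replicate 2, as in all values by line that follow), and 752 and 827 CPM and 744 and 807 CPM at quiescence. All quiescent values stood clear of the day 2 values, and the log2 change was 1.09 ± 0.17 (SE, adjusted p = 0.000587) in wildtype and 1.05 ± 0.17 (adjusted p = 0.000901) in mutant. Lamp1, the other main glycoprotein of the membrane, measured 769.6 and 726 CPM in wildtype and 785 and 725 CPM in mutant at day 2, and 832 and 846 CPM and 823 and 884 CPM at quiescence. Its groups did not overlap either, but the log2 change of 0.17 ± 0.10 in wildtype (adjusted p = 0.213) and 0.18 ± 0.10 in mutant (adjusted p = 0.194) did not pass the test.

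Scarb2 (LIMP-2) is the membrane protein that carries glucocerebrosidase to the lysosome. Its level was 41.9 and 46.5 CPM in wildtype and 49.5 and 51.3 CPM in mutant lines at day 2, and 94.8 and 84.1 CPM and 80.4 and 83.2 CPM at quiescence. Scarb2 rose by 1.02 ± 0.11 (log2, adjusted p = 5.26e-05) in wildtype and by 0.70 ± 0.11 (adjusted p = 0.00066) in mutant. Npc1, which exports cholesterol from the lysosome, went from 46.2 and 48.2 CPM to 68.6 and 69.0 CPM in wildtype and from 52.2 and 49.6 CPM to 73.0 and 69.4 CPM in mutant, with log2 changes of 0.54 ± 0.10 (adjusted p = 0.0013) and 0.48 ± 0.10 (adjusted p = 0.00303). Without wildtype replicate 1 the wildtype call of Npc1 was lost (0.51, adjusted p = 0.0605). Mcoln1, the calcium channel TRPML1, measured 19.4 and 22.2 CPM and 26.3 and 23.4 CPM in wildtype and did not pass the test (log2 change 0.26, adjusted p = 0.113).

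**Figure D2:**
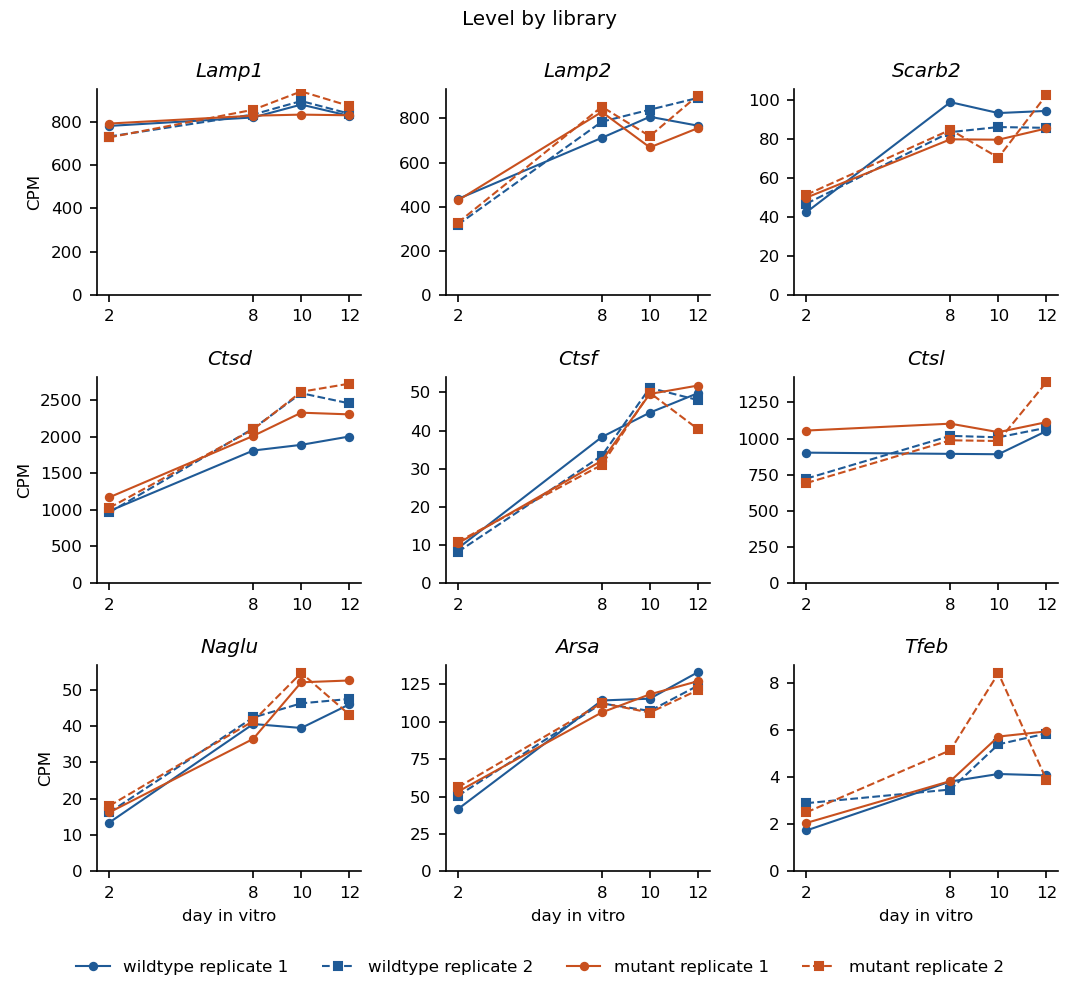
Level in CPM (y axis, linear, from 0) against day in vitro (x axis) for 9 members in each of the 4 lines; wildtype is blue, mutant orange, circles and solid lines are replicate 1, squares and dashed lines replicate 2. Ctsf goes from 8.15 to 10.8 CPM at day 2 to between 31.0 and 51.8 CPM later, while Lamp1 stays between 729 and 942 CPM and Ctsl overlaps between states.

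The proteases showed the widest range: 7 of 8 rose in each genotype, and the members with the largest changes of the whole group were Ctsf and Ctsk. Ctsf, a cysteine cathepsin, measured 8.93 and 8.08 CPM in wildtype and 10.3 and 10.8 CPM in mutant at day 2, and 43.99 and 43.8 CPM and 42.7 and 40.0 CPM at quiescence. The quiescent values were close together in all 4 lines and far from day 2, a fold of 5.17 in wildtype (log2 2.37 ± 0.12, adjusted p = 1.33e-06) and of 3.92 in mutant (log2 1.97 ± 0.12, adjusted p = 3.43e-06). Ctsk is a collagen-degrading cathepsin best known from osteoclasts. It went from 46.0 and 37.8 CPM to 126 and 151 CPM in wildtype and from 54.3 and 37.5 CPM to 177 and 145 CPM in mutant. All lines rose, by 3.31-fold (log2 1.73 ± 0.19, adjusted p = 0.000104) and 3.52-fold (log2 1.82 ± 0.19, adjusted p = 0.0001). The 7 osteoclast markers looked at summed to at most 14.2 CPM in any library, with 1 to 4 of them at 0. Among them Acp5 alone passed the test (4.52-fold, adjusted p = 0.000162 in wildtype).

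Ctsd, the main aspartic protease of lysosomes, was the most abundant member per kilobase of exon. Its level was 969 and 957 CPM in wildtype and 1159.7 and 1024 CPM in mutant at day 2, and 1886 and 2361 CPM and 2177 and 2426 CPM at quiescence. Wildtype replicate 1 was the lowest of the quiescent values and still stood above all of day 2, and the log2 change was 1.14 ± 0.13 (adjusted p = 9.44e-05) in wildtype and 1.08 ± 0.13 (adjusted p = 0.000173) in mutant. Ctsb, a cysteine protease that also trims dipeptides, rose by 0.79 and 0.66 on the log2 scale in wildtype and mutant. Ctsa, a carboxypeptidase that also protects neuraminidase and beta-galactosidase from breakdown, rose by 0.76 and 0.71. Tpp1, a tripeptidyl peptidase, rose by 0.71 and 0.58, and its call was lost without wildtype replicate 2 (0.61, adjusted p = 0.0649) and, in mutant, without mutant replicate 2 (0.45, adjusted p = 0.0698).

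The remaining proteases, Ctsl and Ctsz, moved little. Ctsl, a cysteine cathepsin with a broad range of substrates, measured 889 and 717 CPM and 943 and 1019 CPM in wildtype and 1045 and 689 CPM and 1072 and 1076 CPM in mutant at day 2 and at quiescence. The states overlapped, since mutant replicate 1 at day 2 lay above both wildtype lines at quiescence, and the log2 changes of 0.29 ± 0.18 (adjusted p = 0.223) and 0.31 ± 0.18 (adjusted p = 0.206) did not pass the test, except in mutant without mutant replicate 1 (0.62, adjusted p = 0.029). Ctsz, a carboxypeptidase, measured 114 and 114 CPM and 141 and 134 CPM in wildtype and 115 and 126 CPM and 155 and 146 CPM in mutant. It passed narrowly, with log2 changes of 0.27 ± 0.10 (adjusted p = 0.0474) and 0.32 ± 0.10 (adjusted p = 0.0234), and with the line as a replicate block it did not pass (adjusted p = 0.115 in wildtype and 0.0629 in mutant). Leaving out any single line also ended its wildtype call, with adjusted p between 0.0589 and 0.393, and its mutant call, with adjusted p between 0.0504 and 0.361, and it missed the threshold under several further settings.

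Of the glycosidases, which cleave sugar chains from glycogen, glycosaminoglycans, glycoproteins and glycolipids, 9 of 11 rose in wildtype and 8 of 11 in mutant. Hexa, the alpha subunit of beta-hexosaminidase, which breaks down ganglioside GM2, measured 104 and 98.1 CPM in wildtype and 107 and 114 CPM in mutant at day 2, and 239.8 and 225 CPM and 243 and 232 CPM at quiescence. The lines lay close together in each state, with log2 changes of 1.20 ± 0.10 (adjusted p = 1.24e-05) and 1.10 ± 0.10 (adjusted p = 2.7e-05). Naglu, which removes N-acetylglucosamine from heparan sulfate, went from 13.2 and 16.03 CPM to 41.9 and 44.8 CPM in wildtype and from 16 and 17.9 CPM to 45.6 and 46.4 CPM in mutant. It had the largest change of this role, 1.57 ± 0.13 (adjusted p = 1.2e-05) and 1.44 ± 0.13 (adjusted p = 2.61e-05). Gaa, the acid alpha-glucosidase that digests glycogen, went from 129.8 and 142 CPM to 339.9 and 290.0 CPM in wildtype and from 138 and 152 CPM to 345 and 288 CPM in mutant. In each genotype replicate 1 ended higher than replicate 2, and all lines rose, by 1.21 ± 0.13 (adjusted p = 5.63e-05) and 1.12 ± 0.13 (adjusted p = 0.000117).

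The other glycosidases ranged from a change of over 2-fold to none detected. Idua, which removes iduronic acid from heparan and dermatan sulfate, rose by 1.29 and 1.22 on the log2 scale in wildtype and mutant. The alpha-mannosidase Man2b1 rose by 1.04 and 0.86, and the alpha-fucosidase Fuca1 by 0.97 and 0.93. The sialidase Neu1 rose by 0.75 and 0.86, and the beta-mannosidase Manba by 0.73 and 0.76. Neu1 lost its wildtype call without wildtype replicate 1 (0.55, adjusted p = 0.0937) and Manba without wildtype replicate 2 (0.62, adjusted p = 0.0749).

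Glb1, the lysosomal beta-galactosidase whose activity is stained as a marker of senescent cells, changed little as mRNA. It measured 48.1 and 49.6 CPM at day 2 and 62.4 and 60.9 CPM at quiescence in wildtype, and 50.4 and 56.0 CPM and 63.6 and 60.5 CPM in mutant. The states did not overlap, and Glb1 rose in wildtype (0.34 ± 0.10, adjusted p = 0.0211), but in mutant the change of 0.22 ± 0.10 did not pass (adjusted p = 0.108). The wildtype call was lost with the line as a replicate block (0.34, adjusted p = 0.0564), without wildtype replicate 1 (0.29, adjusted p = 0.274) and without wildtype replicate 2 (0.35, adjusted p = 0.186). Gla, the alpha-galactosidase that acts on globotriaosylceramide, measured 27.9 and 24.1 CPM and 28.7 and 28.6 CPM in wildtype, and Gusb, the beta-glucuronidase, 85.3 and 84.9 CPM and 78.8 and 82.5 CPM. Neither passed the test in either genotype, with log2 changes of 0.14 in wildtype and -0.05 in mutant for Gla and of -0.08 and -0.18 for Gusb, the only member below 0 in wildtype.

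Sulfatases remove sulfate groups so that glycosidases can go on with the chain, and 4 of 5 rose in each genotype. Arsa, which acts on the myelin lipid sulfatide, measured 40.8 and 49.9 CPM in wildtype and 52.7 and 55.9 CPM in mutant at day 2, and 120.5 and 113 CPM and 114 and 111 CPM at quiescence. The states were far apart in all lines, with log2 changes of 1.36 ± 0.12 (adjusted p = 1.48e-05) and 1.05 ± 0.12 (adjusted p = 8.79e-05). Arsb, which acts on dermatan and chondroitin sulfate, went from 39.9 and 43.6 CPM to 72.8 and 82.1 CPM in wildtype and from 43.1 and 47.2 CPM to 80.0 and 79.2 CPM in mutant. The groups did not overlap, and the log2 changes were 0.89 ± 0.11 (adjusted p = 0.000133) and 0.82 ± 0.11 (adjusted p = 0.000287).

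Ids, the iduronate sulfatase, went from 62.2 and 68.9 CPM to 108 and 144 CPM in wildtype and from 68.4 and 80.8 CPM to 121 and 140.5 CPM in mutant. Replicate 2 was the higher line in both states and genotypes, and Ids rose by 0.94 ± 0.15 (adjusted p = 0.000755) and 0.81 ± 0.15 (adjusted p = 0.00226). Sgsh, the heparan N-sulfatase, rose by 0.84 and 0.74, and these calls were lost without wildtype replicate 1 (0.57, adjusted p = 0.0566) and without mutant replicate 1 (0.62, adjusted p = 0.0568). Galns, which acts on keratan sulfate, measured 16.1 and 15.5 CPM and 18.2 and 16.03 CPM in wildtype, with log2 changes of 0.11 and -0.07 that did not pass the test.

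Of the genes of lipid breakdown and lipid handling, 5 of 6 rose in each genotype. Psap, the precursor that is cut into the saposins, which present glycolipids to their hydrolases, measured 774 and 825 CPM in wildtype and 815 and 863 CPM in mutant at day 2, and 1449 and 1479 CPM and 1524 and 1512 CPM at quiescence. It was the second most abundant member per kilobase of exon in both states, and its log2 change was 0.87 ± 0.10 (adjusted p = 8.21e-05) and 0.86 ± 0.10 (adjusted p = 0.00012). Ppt1, which takes palmitate off proteins, went from 72.0 and 66.2 CPM to 107 and 117 CPM in wildtype and from 73.7 and 67.4 CPM to 107 and 109 CPM in mutant. Lipa, the acid lipase that hydrolyses cholesteryl esters and triglycerides, went from 54.9 and 61.6 CPM to 100.3 and 94.2 CPM and from 64.4 and 58.0 CPM to 106 and 84.2 CPM. The states did not overlap for either gene, with log2 changes of 0.70 ± 0.10 (adjusted p = 0.000413) and 0.62 ± 0.10 (adjusted p = 0.00107) for Ppt1 and 0.74 ± 0.13 (adjusted p = 0.00121) and 0.63 ± 0.13 (adjusted p = 0.00351) for Lipa. Without wildtype replicate 1 the wildtype call of Lipa was lost (0.60, adjusted p = 0.0646).

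The acid sphingomyelinase Smpd1 rose by 0.63 and 0.60 on the log2 scale in wildtype and mutant, and Npc2, which hands cholesterol to Npc1, by 0.49 and 0.40. Smpd1 lost its calls without wildtype replicate 1 (0.50, adjusted p = 0.111) and without mutant replicate 1 (0.37, adjusted p = 0.119). Npc2 lost them without wildtype replicate 2 (0.34, adjusted p = 0.167), without mutant replicate 1 (0.34, adjusted p = 0.148) and without mutant replicate 2 (0.44, adjusted p = 0.0719). Asah1, the acid ceramidase, stood apart in this role, at 576 and 465 CPM and 515 and 535 CPM in wildtype and 619 and 478 CPM and 555 and 542 CPM in mutant. In each genotype replicate 1 was lower and replicate 2 higher at quiescence than at day 2, and the log2 change was 0.01 ± 0.14 (adjusted p = 0.958) in wildtype and 0.00 ± 0.14 (adjusted p = 1.00) in mutant.

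Grn codes for progranulin, a secreted protein that is also cut into granulins inside lysosomes. It measured 238 and 239 CPM in wildtype and 243 and 228 CPM in mutant at day 2, and 363 and 346 CPM and 366 and 364 CPM at quiescence. The 4 lines were close to each other in both states, and Grn rose by 0.57 ± 0.10 (adjusted p = 0.000896) and 0.63 ± 0.10 (adjusted p = 0.000631).

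Tfeb, the transcription factor of the group, was its lowest member per kilobase of exon, and its level was 1.70 and 2.87 CPM in wildtype and 2.03 and 2.48 CPM in mutant at day 2, and 3.96 and 4.86 CPM and 4.97 and 5.99 CPM at quiescence. Every quiescent value lay above every day 2 value, and Tfeb rose by 0.93 ± 0.29 (log2, adjusted p = 0.0235) in wildtype and 1.27 ± 0.29 (adjusted p = 0.00645) in mutant, with the largest SE of the 37 members. The wildtype call was lost without wildtype replicate 1 (0.75, adjusted p = 0.183) and without wildtype replicate 2 (1.19, adjusted p = 0.0583).

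Levels differed far more between members than between states. As a level per length, in CPM per kilobase of exon, wildtype lines at quiescence ranged from 903 for Ctsd, 534 for Psap and 314 for Lamp1 down to 5.11 for Manba, 3.29 for Mcoln1 and 0.777 for Tfeb. The same 3 genes led at day 2, with 409.6 for Ctsd, 291 for Psap and 279.6 for Lamp1, and Tfeb was again the lowest at 0.403. Among the 37, Ctsf moved from place 36 to place 30 in this order and Ctsk from place 15 to place 11, while Gusb moved from place 17 to place 22.

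Read beside the promoter sequences, the median change was not larger in the members that hold GTCACGTG within the 250 bases before the start. Bases past the start, and variants of the element other than the shorter CACGTG, were not searched. The part of the element in the change was not tested. Of the 9 members that hold GTCACGTG, 6 rose in wildtype and 5 in mutant, with a median log2 change of 0.76 and 0.71. Of the 24 members without these letters in the searched bases, 22 rose in wildtype and 22 in mutant, with medians of 0.88 and 0.82. The holders ranged from 0.14 (Gla) to 1.57 (Naglu) in wildtype and the others from -0.08 (Gusb) to 2.37 (Ctsf). Among the genes with an entry, the same letters were also found in other lists, beside 27.3% of the members and 2.11% of all genes. They were in 2 of 7 genes of the tagging and sorting list (28.6%) and 3 of 14 other lysosomal membrane proteins (21.4%). The autophagy list had 2 of 16 (12.5%) and the MiT/TFE and mTORC1 list 2 of 19 (10.5%). The V-ATPase subunits had 1 of 11 (9.09%) and the other lysosomal hydrolases 1 of 14 (7.14%). None of the cathepsin inhibitors or fibroblast markers with an entry held them.

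The other genes of the pathway were described with 7 lists. Of all tested genes, 23.9% rose and 23.7% fell in wildtype, and 21.1% rose and 21.0% fell in mutant. Of 23 other lysosomal hydrolases 16 rose and 1 fell in wildtype, and 17 rose and 1 fell in mutant, with median log2 changes of 0.56 and 0.58. The cathepsin Ctso went from 4.86 and 3.84 CPM to 18.6 and 19.6 CPM in wildtype (2.14, adjusted p = 9.11e-06), and the hyaluronidase Hyal1 from 4.04 and 5.40 CPM to 16.6 and 20.8 CPM (1.98, adjusted p = 2.58e-05). Galc, the galactocerebrosidase, was the one that fell, from 33.1 and 35.4 CPM to 23.8 and 25.0 CPM (-0.49, adjusted p = 0.00546), and it is named because it was the only one. Of 16 other membrane proteins of the lysosome 7 rose and 1 fell in each genotype, with medians of 0.36 and 0.32. The smallest p in wildtype were those of Laptm4a (1.25, adjusted p = 2.38e-05), Ctns, the cystine exporter (1.11, adjusted p = 0.000143), and Slc17a5, the sialic acid exporter (0.76, adjusted p = 0.000977). Tmem192, likewise named as the only one, fell (-0.68, adjusted p = 0.00218).

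Few subunits of the proton pump that acidifies the lysosome passed the test. Of 15 tested subunits of the V-ATPase 3 rose and 1 fell in wildtype, and 3 rose and none fell in mutant, with medians of 0.05 and 0.17, where 23.9% and 21.1% of all tested genes rose. Atp6v0a1 rose by 0.64 (adjusted p = 0.00157) and Atp6v0d1 by 0.31 (adjusted p = 0.0396) in wildtype, and Atp6v1c1 fell there (-0.53, adjusted p = 0.00825) from 102 and 84.5 CPM to 65.7 and 63.6 CPM. Atp6v0c had almost no counts and was not tested, and the reason for its low counts was not examined.

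The tagging and sorting machinery for lysosomal enzymes held genes that went in each direction. Of 9 genes 4 rose and 2 fell in each genotype, where 23.9% and 21.1% of all tested genes rose and 23.7% and 21.0% fell. The share that fell was thus close to that of all tested genes. Sort1, a sorting receptor, went from 21.3 and 21.9 CPM to 70.2 and 62.9 CPM in wildtype and from 27.9 and 25.1 CPM to 67.8 and 64.0 CPM in mutant (1.62, adjusted p = 4.62e-06, and 1.32, adjusted p = 1.87e-05). Igf2r, the large mannose 6-phosphate receptor, which also binds insulin-like growth factor, went from 457 and 532 CPM to 955 and 890.5 CPM in wildtype and from 569.5 and 575 CPM to 907 and 882 CPM in mutant (0.90, adjusted p = 0.000129, and 0.64, adjusted p = 0.0012). M6pr, the small mannose 6-phosphate receptor, fell in both (-0.59, adjusted p = 0.000686, and -0.53, adjusted p = 0.00167), from 192 and 179.7 CPM to 123 and 123 CPM in wildtype. Of the enzyme that attaches the tag, the gamma subunit Gnptg rose in wildtype (0.98, adjusted p = 0.00025). The gene of its catalytic subunits, Gnptab, fell there and passed the test narrowly (-0.30, adjusted p = 0.0431). Gga2, a coat adaptor that gathers the receptors, was the fourth gene that rose (0.54, adjusted p = 0.000947). M6pr, Gga2 and Gnptab were named after their values were seen.

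Among 20 genes of the MiT/TFE factors and of mTORC1 at the lysosome, 7 rose and 1 fell in wildtype, and 6 rose and none fell in mutant. The medians were 0.06 and 0.09, and 23.9% and 21.1% of all tested genes rose. Mitf went from 3.46 and 7.51 CPM to 9.66 and 14.2 CPM in wildtype, and rose by 1.10 (adjusted p = 0.0217) there and by 1.18 (adjusted p = 0.0184) in mutant. Flcn, which acts with Fnip1 on the Rag GTPases, rose by 0.50 (adjusted p = 0.00491) and Fnip1 by 0.73 (adjusted p = 0.0106) in wildtype. Lamtor4, a subunit of the complex that anchors those GTPases to the membrane, rose by 0.50 (adjusted p = 0.00629). Tfe3, another relative of Tfeb, measured 46.8 and 57.4 CPM at day 2 and 52.2 and 56.8 CPM at quiescence in wildtype and did not pass the test (0.06, adjusted p = 0.731). Mitf and Tfe3 were named after their values were seen. Of 22 autophagy genes 7 rose and 1 fell in wildtype, and 6 rose and none fell in mutant. The medians were 0.15 and 0.14, beside the same 23.9% and 21.1% of all tested genes that rose. Gabarapl1 (0.49, adjusted p = 0.00843), Gabarap (0.44, adjusted p = 0.0141) and Map1lc3b (0.50, adjusted p = 0.0144), which code for the ubiquitin-like proteins that coat autophagosomes, led the list in wildtype.

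Of 4 tested cathepsin inhibitors 1 rose and 2 fell in each genotype. Of all tested genes 23.9% rose and 23.7% fell in wildtype, and 21.1% rose and 21.0% fell in mutant. Cst3 codes for the secreted cystatin C and went from 131 and 109.5 CPM to 273 and 329 CPM in wildtype and from 89.0 and 139 CPM to 378 and 392 CPM in mutant (1.32, adjusted p = 0.000591, and 1.75, adjusted p = 0.000156). In wildtype the 2 that fell were Cstb, cystatin B (-0.78, adjusted p = 0.00156), and Serpinb6a (-0.74, adjusted p = 0.00118), which act inside the cell. Cst6 did not pass (0.58, adjusted p = 0.235).

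**Figure D3:**
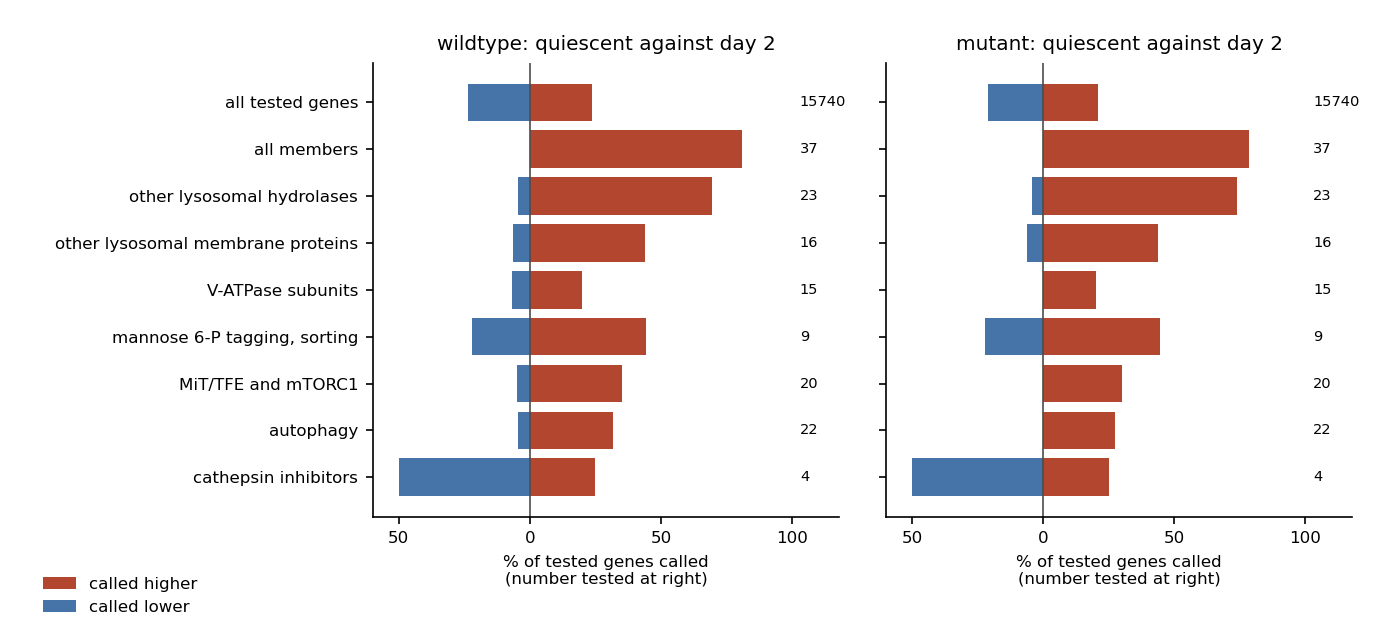
Share of the tested genes of each list that passed the test from day 2 to quiescence, higher to the right in red and lower to the left in blue, in wildtype lines (left panel) and mutant lines (right panel); the number of tested genes stands at the right. The 37 members and the other lysosomal hydrolases have the longest red bars, and the V-ATPase subunits have a red bar no longer than that of all tested genes (3 of 15 against 23.9% in wildtype).

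Most of the change was in place by day 8. The median log2 difference of the 37 genes from day 2 was 0.76, 0.79 and 0.77 in wildtype at days 8, 10 and 12, and 0.68, 0.73 and 0.79 in mutant, where the median over all tested genes was between 0.03 and 0.05. From day 8 to day 12 no member passed the test in wildtype or in mutant, where 0.816% and 1.09% of all 15439 genes tested did. At an unadjusted p under 0.05 this was 1 member in wildtype and 4 in mutant by edgeR's test, against 1214 and 1350 of all genes tested. By DESeq2 no member passed in wildtype, where 113 genes were called higher and 188 lower in all, and 1, Ctsf, passed in mutant, where 120 were called higher and 239 lower. The median difference of the members was 0.04 in wildtype and 0.12 in mutant. In these tests by edgeR and DESeq2 the repeat harvests of a line were counted as independent.

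Ctsf had the smallest p between days 8 and 12 in each genotype. It measured 9.07, 38.3, 44.7 and 49.8 CPM at days 2, 8, 10 and 12 in wildtype replicate 1 and 8.15, 33.4, 51.2 and 48.0 CPM in wildtype replicate 2. In the mutant lines it measured 10.4, 32.1, 49.6 and 51.8 CPM in replicate 1 and 10.8, 31.0, 49.9 and 40.4 CPM in replicate 2. Day 12 lay above day 8 in all 4 lines, by 0.45 ± 0.13 (log2, SE) in wildtype (adjusted p = 0.215) and 0.55 ± 0.13 in mutant (adjusted p = 0.0713), neither of which passed by edgeR, while DESeq2 gave an adjusted p of 0.00916 for the mutant lines. For Tfeb day 12 lay above day 8 in 3 of the 4 lines. The exception was mutant replicate 2, where it measured 2.50, 5.14, 8.41 and 3.89 CPM at the 4 days, and the difference of 0.45 ± 0.32 in wildtype did not pass the test (adjusted p = 0.887).

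The question of the study was which genes differ between wildtype and Zac1-mutant cells, and no lysosomal gene did by the test. At quiescence no member passed, where 1 of 15740 genes passed (0.00635%), and that gene was Plagl1. In proliferation no member passed, and again 1 gene (0.00635%), Plagl1, did. The difference of the state change between genotypes had no member and no other gene past the threshold (0% of all tested genes). At an unadjusted p under 0.05, edgeR's test gave no member at quiescence, 1 in proliferation and 1 for the difference of the state change, against 76, 451 and 265 of all tested genes. DESeq2 and limma-voom called no member in any of the 3 comparisons either. With 2 lines against 2, the smallest two-sided p of an exact permutation test is 0.333.

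At day 2 most members were slightly higher in the mutant lines, and none passed the test. The fitted log2 difference was above 0 for 34 of 37 genes, with a median of 0.11. Over all tested genes 50.4% were above 0 and the median was 0.00. The summed levels of the genotypes overlapped, at 7275 and 6799 CPM in wildtype and 7962 and 7079.7 CPM in mutant, and within each replicate number the mutant line was the higher. At quiescence 25 of 37 differences were above 0, with a median of 0.03, where 54.8% of all tested genes were above 0 and the median was 0.01. For 29 of the 37 genes the change was smaller in mutant, that is, the difference of the log2 state changes, mutant minus wildtype, was below 0, with a median of -0.07, where 7554 of 15740 tested genes were below 0 and the median was 0.01. These 3 comparisons share libraries, so their values are not independent of each other, and no test over the list was made.

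The members with the smallest unadjusted p were Ctsf, Arsa and Scarb2 in proliferation and the same genes for the difference of the state change. Ctsf at day 2 was 8.93 and 8.08 CPM in wildtype and 10.3 and 10.8 CPM in mutant, so the lines did not overlap, with a log2 difference of 0.31 ± 0.12 (edgeR, unadjusted p = 0.0247, adjusted p = 1.00). Its state change was smaller in mutant by 0.40 ± 0.16 on the log2 scale (unadjusted p = 0.0333, adjusted p = 1.00). Arsa was 40.8 and 49.9 CPM and 52.7 and 55.9 CPM at day 2, a difference of 0.26 ± 0.12 (unadjusted p = 0.0532, adjusted p = 1.00). Scarb2 was 41.9 and 46.5 CPM and 49.5 and 51.3 CPM, a difference of 0.19 ± 0.11 (unadjusted p = 0.111, adjusted p = 1.00). In all 3 both mutant lines were higher than both wildtype lines at day 2, and the fitted difference was below 0 at quiescence. The 3 were picked by these p-values, so their shared pattern partly follows from the choice. Other members, among them Npc1 and Hexa, showed the same order at day 2. How many of all tested genes had lines that did not overlap was not counted. At quiescence Scarb2 was 94.8 and 84.1 CPM in wildtype and 80.4 and 83.2 CPM in mutant, Ctsf was 43.99 and 43.8 CPM and 42.7 and 40.0 CPM, and Arsa was 120.5 and 113 CPM and 114 and 111 CPM, with differences of -0.13, -0.09 and -0.05.

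At quiescence the members with the smallest unadjusted p were Ctsz, Scarb2 and Ctsk. Ctsz was 141 and 134 CPM in wildtype and 155 and 146 CPM in mutant, a log2 difference of 0.14 ± 0.10 (edgeR, unadjusted p = 0.197, adjusted p = 1.00). Ctsk was 126 and 151 CPM and 177 and 145 CPM, a difference of 0.22 ± 0.19 (unadjusted p = 0.272, adjusted p = 1.00), and the lines overlapped. Scarb2 differed by -0.13 ± 0.11 (unadjusted p = 0.252, adjusted p = 1.00). Tfeb, with 3.96 and 4.86 CPM in wildtype and 4.97 and 5.99 CPM in mutant, had the largest fitted difference in this state, 0.32 ± 0.28 (unadjusted p = 0.288, adjusted p = 1.00). Macrophage markers were highest in mutant replicate 1 in both states, and their part in these genotype values was not tested.

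**Figure D4:**
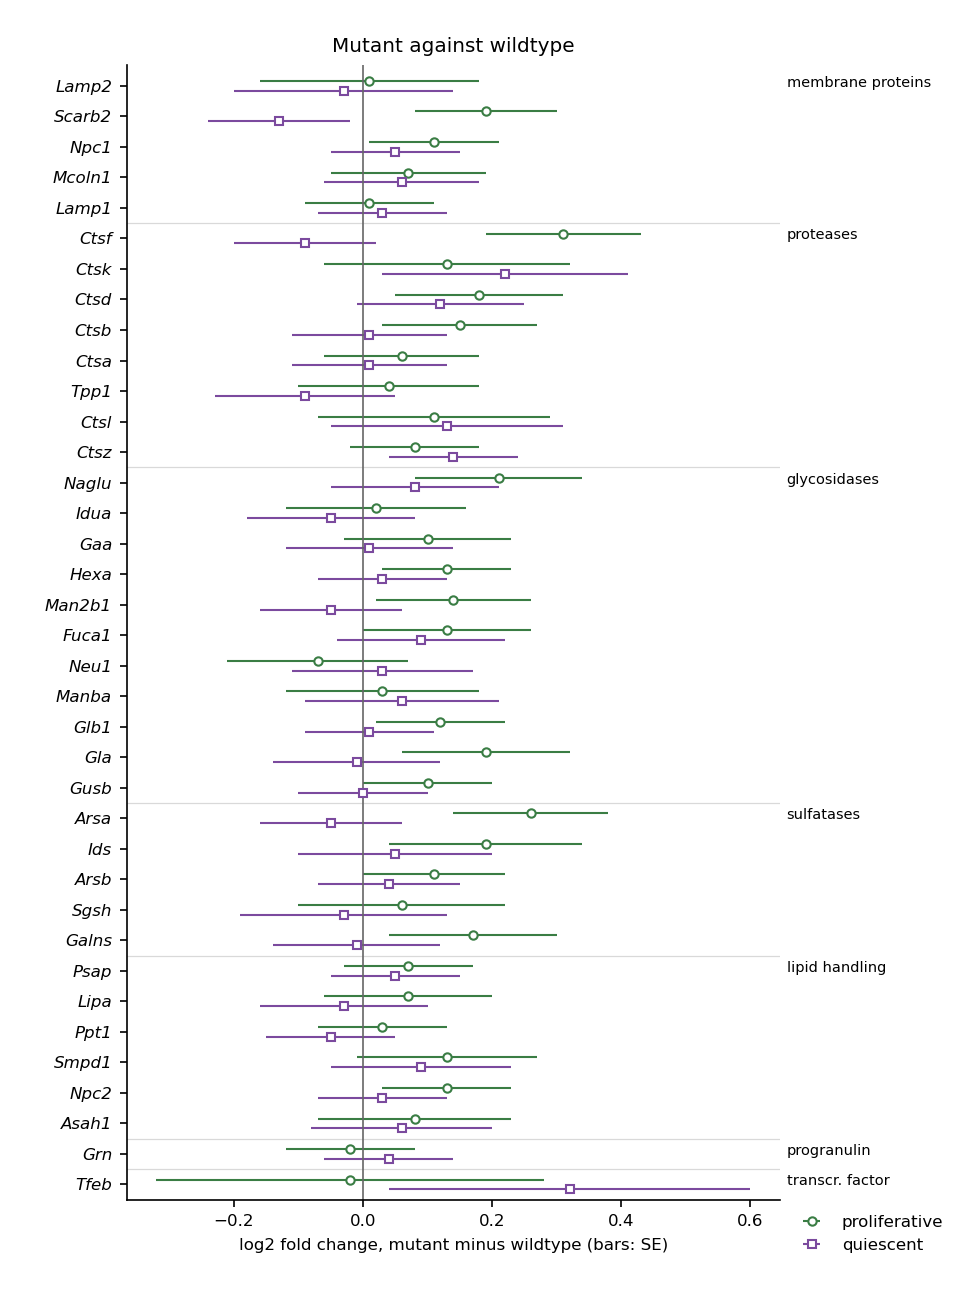
Log2 difference between mutant and wildtype lines (x axis) for each of the 37 genes, in proliferation (green circles, day 2) and at quiescence (purple squares, days 8 to 12 summed); bars are SE, and no symbol is filled because no gene passed the test. Most green circles lie to the right of 0, up to 0.31 for Ctsf, and the purple squares lie on both sides, from -0.13 for Scarb2 to 0.32 for Tfeb.

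In 9 members (Lamp1, Ctsa, Ctsb, Glb1, Hexa, Idua, Sgsh, Ppt1 and Grn) the exons overlap those of another gene of the counts table in the annotation of build GRCm38, and for all but Glb1 that gene lies on the opposite strand. The other genes were matched by symbol, so one that the counts table lists under another symbol would be missed. Npc1, Ctsd and Ctsz also overlap protein-coding genes (Rmc1, Gm49369 and Nelfcd) whose symbols were not found there. The strand setting of the counting is not given in the sources used here. Reads of such pairs may therefore not have been told apart.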

How the data were processed

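The authors deposited a table of whole-number read counts per gene, not normalized, for 23100 genes in 16 libraries. Per the labels' protocols, total RNA was DNase-treated and made into stranded libraries. The submitters' processing notes list HTSeq 0.6.1p1, TopHat2 2.1.1, bcl2fastq 2.18 and Bowtie2 2.2.9 with the mouse build mm9; annotation and strand setting are not stated there. The table held 0 columns of other samples and 0 rows without a gene name.

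Each line's counts at days 8, 10 and 12 were added up. The 8 resulting libraries (4 groups: genotype by state) were filtered with filterByExpr, which left 15740 genes, scaled by TMM and tested by the robust quasi-likelihood method of edgeR 4.0.16 under R 4.3.3, with 4 residual degrees of freedom. P-values were adjusted by Benjamini and Hochberg over all tested genes and called under 0.05. For day 12 against day 8 all 16 libraries entered as 8 groups, with 15439 genes and 8 residual degrees of freedom. SE was derived from the fold change and the F statistic. CPM of summed libraries and of single harvests were scaled separately. The script was tested on simulated data.

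Members and gene lists were chosen with earlier results of these data known. All members are named; values by line are given for the 3 smallest p of each role in wildtype, the 3 smallest p of each genotype comparison, Tfeb, Lamp1 and Lamp2, and up to 3 genes of each other list. Other values by line were added after they were seen. A gene that met this rule is not reported here. Levels per kilobase use exon lengths of a GRCm38 annotation, and promoter sequences are from RefSeq (GRCm38.p6), another build than that of the counts, so coordinates apply to the promoters only.

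The same line was harvested at every day, so lines pair the samples of different states by design, and the day 2 and quiescent deviations of a line correlated at 0.21 in wildtype and 0.20 in mutant. Wildtype and mutant lines share a number and a letter in the labels, whose meaning is not stated, and were not treated as pairs. No source says that lines of a genotype came from separate litters, so p-values measure the spread between these lines. Alternatives were RLE and upper quartile scaling, DESeq2 1.42.0, limma-voom (limma 3.58.1) with the line as a random effect, other filters, leaving out each line or quiescent day, only the libraries of a comparison, and a replicate block.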

Additional observations from a re-analysis of the deposited data

How the results depend on the processing

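Over 15 alternatives the number of members that rose ranged from 22 to 31 in wildtype and from 26 to 29 in mutant, lowest when a wildtype line or a mutant line was left out, which leaves an arm with 1 line assumed to vary like the others. The median log2 change ranged from 0.74 to 0.83 and from 0.68 to 0.75. A total of 19 members rose in both genotypes under every alternative. With the line as a replicate block 28 members rose in each genotype, and the calls lost were those of Ctsz and Glb1. The genotype comparisons and the difference of the state change gave 0 members under every alternative, the replicate block included, where the genotype comparisons were blocked on the number that a wildtype and a mutant line share (correlation of deviations 0.15 at quiescence and 0.29 in proliferation). Day 12 against day 8 in mutant gave 0 members except 1 with DESeq2 (Ctsf, 0.55); the cause was not tested. Values near 0 changed sign: Asah1 in wildtype, -0.19 to 0.19 over the lines left out; Gla in mutant, -0.17 to 0.06 over the lines left out and 0.06 without day 10; Galns in mutant, -0.19 to 0.04. Upper quartile scaling moved the median of all genes in wildtype from 0.051 to 0.123. Mcoln1 passed in wildtype under that scaling alone (0.33, adjusted p = 0.0481). Each genotype had 2 lines, and Tfeb, at a few CPM, had the largest SE of the members.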
